A study of Mus musculus with 4 samples.

Results

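Tbx21, Eomes, Tox, Prdm1, Id2, Id3, Batf and Bhlhe40 are transcription factors and transcriptional regulators of effector T cells and natural killer (NK) cells. They were taken by symbol from the gene table, 8 of the 27998 genes it lists, and all 8 were present. Their RNA was followed in T cells and NK-like cells of 4 single-cell libraries of mouse brain immune cells, 1 library per group. The healthy brain library came from C57BL/6 animals without tumor, whose number is not given in the sources used here. In the other 3 groups C57BL/6J mice 8 to 12 weeks old had carried a hippocampal implant of glioma-005, a mouse glioblastoma cell line. Intraperitoneal antibodies began 7 days after implantation. The IgG group received isotype control antibody (rat IgG2a, clone LTF-2). The anti-CTLA-4 group received clone 9H10, a Syrian hamster antibody against the inhibitory receptor CTLA-4, which is of another species than the isotype control. The anti-CTLA-4 plus CD4 depletion group (called the depletion library here) also received clone GK1.5, which removes CD4 cells. Tumors were collected on day 35 and each tumor library pooled 3 of them. Sorted microglia, CD11b+ myeloid cells, CD3+ T cells and remaining immune cells were mixed at equal ratios in each library. Barcodes carry no sort label, so the number of T or NK-like cells in a library is set in part by that mixing.

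T-bet (encoded by Tbx21) and Eomes are related T-box factors that drive cytotoxic and interferon-gamma programs, and NK cells depend on both. Tox acts in T cell development and is required by T cells that persist under chronic antigen, and Blimp-1 (Prdm1) represses memory genes during terminal effector differentiation. Id2 and Id3 lack a DNA-binding region and hold E proteins away from DNA, Id2 in effector and innate lymphocytes and Id3 in naive, memory and follicular T cells. Batf is an AP-1 family factor that acts with Irf4 after T cell receptor signaling, and Bhlhe40 is a basic helix-loop-helix repressor that supports cytokine production and mitochondrial function in activated lymphocytes.

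The libraries held 1420 barcodes (healthy brain), 1484 (IgG), 1874 (anti-CTLA-4) and, in the depletion library, 3916, with 7950206 to 21471565 unique molecular identifiers (UMIs). After filters and clustering without the 8 genes, T cells numbered 148, 380, 526 and 1181 in that order, and NK-like cells 4, 164, 359 and 278. Median depth was lower in the depletion library, at 3955 UMIs per T cell and 3005.5 per NK-like cell, against 5377.5 to 6192 per T cell and 4892 to 6094.5 per NK-like cell elsewhere. The healthy library carried the Y-linked gene Ddx3y (68.0 CPM, UMIs of a gene per 1e+06 UMIs) and the tumor libraries carried Xist (715 to 950 CPM), so the sex of the mice differed between healthy brain and tumor and cannot be told apart from the tumor. All 7 T cell markers in the table were detected in the T cells of every library, and all 13 NK markers in the NK-like cells of every tumor library. Libraries shared 0 to 6 barcodes per pair, with 1 T or NK-like cell among them.

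T cells were split by UMIs into Foxp3 T cells (any Foxp3 UMI), CD8 T cells (Cd8a or Cd8b1, no Cd4 or Foxp3) and CD4 T cells (Cd4, no Cd8a, Cd8b1 or Foxp3). In the order above, the CD8 class held 60, 76, 143 and 695 cells, the CD4 class 40, 77, 137 and 17, the Foxp3 class 2, 122, 103 and 145, and the remaining T cells numbered 46, 105, 143 and 324. The 17 CD4 cells of the depletion library, the 2 healthy Foxp3 cells and the 4 healthy NK-like cells were too few for a comparison. In the depletion library 52.4% of the Foxp3 cells (76 of 145) carried a Cd8a or Cd8b1 UMI and 1 carried a Cd4 UMI, against 7.38% and 11.7% with a Cd8a or Cd8b1 UMI with IgG and anti-CTLA-4. The makeup of that class thus differed between the libraries. The largest sub-cluster of the CD8 class also differed between some libraries. Naive-like sub-cluster 0 (Dapl1, Lef1, Ccr7) held 50 of the 60 healthy CD8 cells. Sub-cluster 14 (Pdcd1, Gzmf) led with 19 of 76 IgG cells and 50 of 143 cells under anti-CTLA-4. Sub-cluster 3 (Gzmk, Cxcr3) led with 284 of 695 depletion cells. Sub-cluster 6 (Gimap5, Pdcd4) had 225 of its 227 cells in the depletion library. NK sub-cluster 15 had all 88 there, at a median of 2364 UMIs. For some genes, values of the depletion library are therefore also given without them.

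Levels are CPM: the UMIs of a gene summed over the cells of a class in a library, divided by all UMIs of those cells and scaled to 1e+06. With 1 library per group there is no replicate and no test over samples. The 95% intervals are exact, cover counting error only, and say nothing of the spread between mice. Those of CPM and CPM ratios take UMIs of the same cell as independent, so they also leave out the spread between cells. A level is compared for the same gene across cells, not between genes.

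The sequence just upstream of the start site is shown for the T-box pair, whose levels open the results. Tbx21 (ENSMUSG00000001444) lies on chromosome 11 at 97098071 to 97115331, minus strand, and Eomes (ENSMUSG00000032446) on chromosome 9 at 118478212 to 118486132, plus strand, in GENCODE vM21 (GRCm38). The 250 bases before each RefSeq start (GRCm38.p6) follow, 5′ to 3′ on the gene's strand, with capitals for CANNTG, the E-box that E proteins bind and that Id2 and Id3 keep them from.
Tbx21, chr11:97115332-97115581: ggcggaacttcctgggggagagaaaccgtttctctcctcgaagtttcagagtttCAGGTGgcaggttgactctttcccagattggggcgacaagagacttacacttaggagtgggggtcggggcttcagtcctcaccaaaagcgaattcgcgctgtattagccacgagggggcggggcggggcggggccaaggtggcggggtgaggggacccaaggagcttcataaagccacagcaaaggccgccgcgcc
Eomes, chr9:118477939-118478188: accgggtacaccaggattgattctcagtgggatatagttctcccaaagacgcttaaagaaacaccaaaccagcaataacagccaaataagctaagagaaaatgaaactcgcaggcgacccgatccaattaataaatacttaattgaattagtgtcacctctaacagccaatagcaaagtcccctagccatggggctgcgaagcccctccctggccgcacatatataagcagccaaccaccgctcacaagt
The Tbx21 window held 1 CANNTG match and the Eomes window 0, with 60.8% and 46.4% G and C. The motif reads the same on both strands, and 66.0% of the 27025 RefSeq promoter windows of this length hold it. The narrower CACGTG, which is contained in CANNTG and which Bhlhe40 binds, was in neither window and is in 6.05% of all. A match is letters only and was not tied to binding.

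The T-box genes were highest in NK-like cells. Eomes stood at 261 (IgG), 256 (anti-CTLA-4) and 234 CPM (depletion) in NK-like cells and at 49.7, 16.7 and 25.9 CPM in CD8 T cells, with 26.7 CPM in healthy CD8 T cells. Every NK-like value lay above every CD8 value, with ratios of 5.25 (95% interval 3.60 to 7.90), 15.4 (9.94 to 25.1) and 9.04 (7.03 to 11.7). An Eomes UMI was found in 64.6%, 62.4% and 45.3% of NK-like cells, and after thinning every cell to 1000 UMIs in 21.5%, 21.5% and 20.7%. The unthinned share was lower with depletion, where depth was lower, and the thinned shares lay within 1 percentage point. As background, the 497 cells of the B cell-like cluster, at a median of 3841 UMIs, held 0 Eomes UMIs, which allows a share of up to 0.604%.

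Tbx21 was spread more widely over T cells than Eomes. In NK-like cells it stood at 91.7, 87.7 and 57.8 CPM with IgG, anti-CTLA-4 and depletion, and in CD8 T cells at 40.1, 46.1 and 23.9 CPM, with 14.4 CPM in healthy brain. NK-like cells were 2.29-fold (1.45 to 3.73), 1.90-fold (1.40 to 2.61) and 2.42-fold (1.68 to 3.46) higher. Thinned to 1000 UMIs per cell the ratios were 9.20, 3.36 and 5.18, the first with Tbx21 in 1 CD8 cell. CD4 T cells carried Tbx21 at 8.92 (healthy brain), 37.4 (IgG) and 46.4 CPM (anti-CTLA-4), near the CD8 levels of the same libraries. Eomes was almost absent there: 0 UMIs in healthy brain and with IgG (floors of 13.4 and 5.35 CPM at 3 UMIs) and 2.51 CPM with anti-CTLA-4. The remaining T cells, with no Foxp3 UMI and either both or neither of Cd4 and Cd8, carried Eomes at 48.8 CPM with IgG and 13.8 CPM in both other tumor libraries, and Tbx21 at 28.3, 27.6 and 18.1 CPM.

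**Figure D1:**
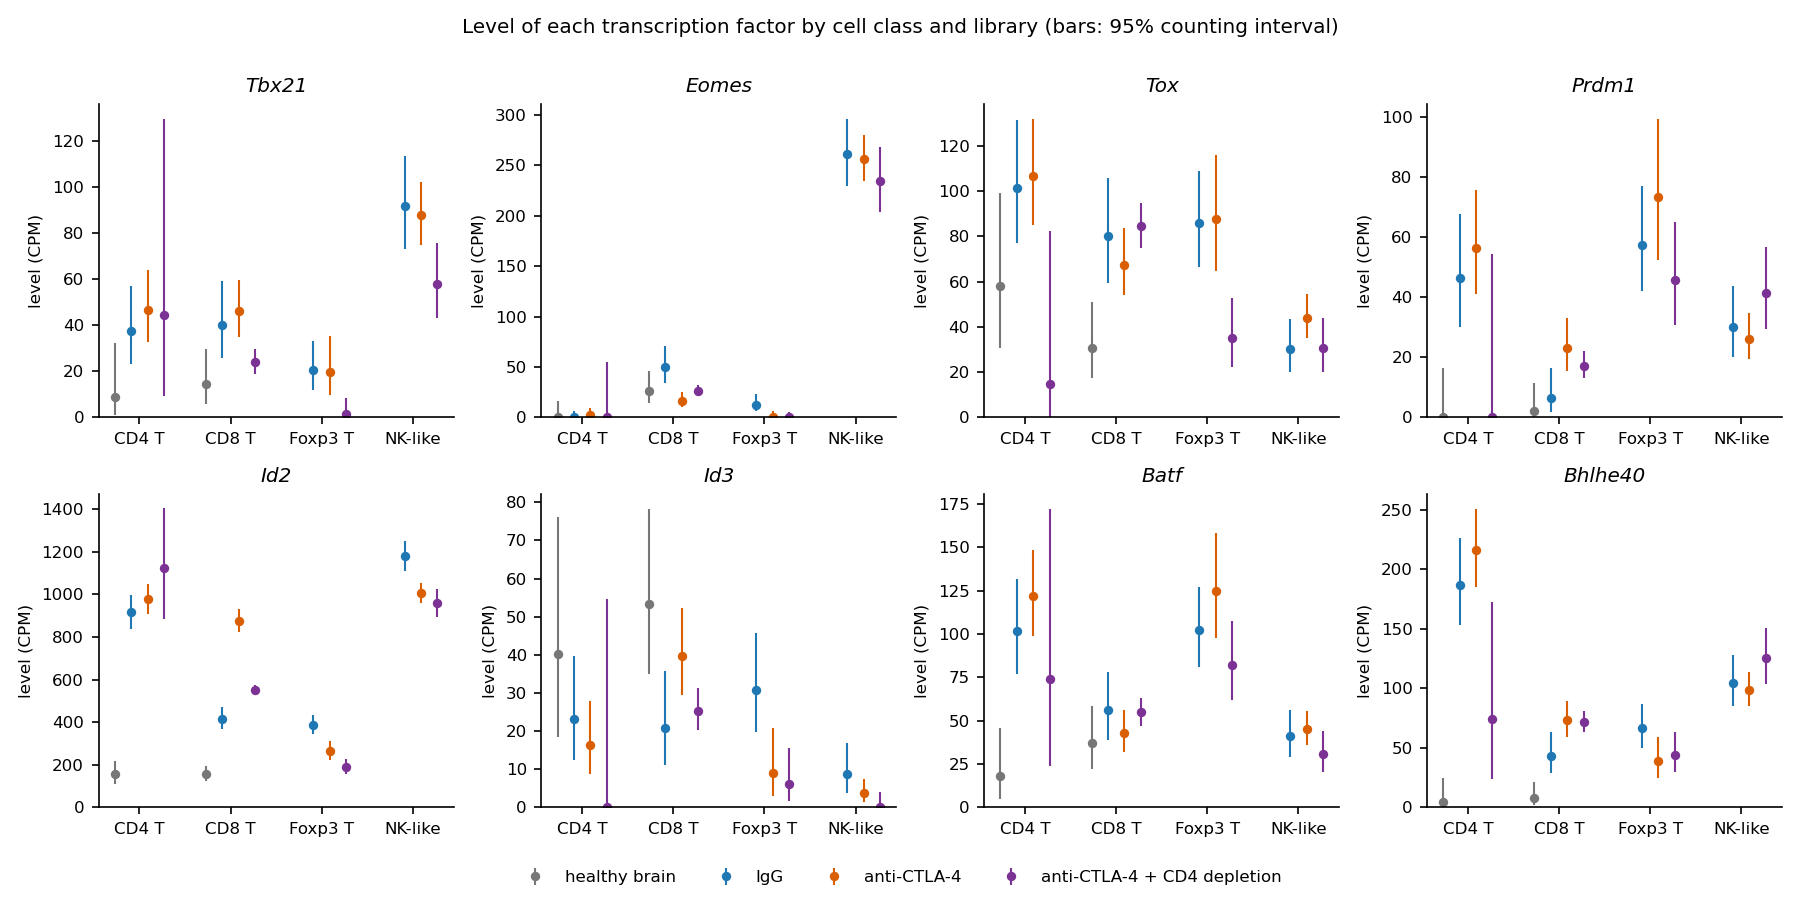
Level of each of the 8 genes (vertical axes, CPM, linear, a scale of its own per gene) in CD4, CD8 and Foxp3 T cells and NK-like cells, with 1 point per library and 95% counting intervals as bars; a class with under 10 cells in a library is left out. Eomes points of NK-like cells lie at 234 to 261 CPM, above all T cell points, and Id3 points of NK-like cells lie at 0 to 8.63 CPM, below the CD8 points of the same libraries.

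Foxp3 T cells had low T-box levels. Tbx21 stood at 20.5 (IgG), 19.7 (anti-CTLA-4) and 1.52 CPM (depletion, 1 UMI). Eomes stood at 12.8, 0 and 0 CPM, and all 10 of the IgG UMIs came from 1 cell. The floor of 3 UMIs was 5.36 CPM with anti-CTLA-4 and 4.57 CPM with depletion, so an Eomes level under about that could not be seen.

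Tox (ENSMUSG00000041272, chromosome 4, 6686353 to 6991557, minus strand) was lower in NK-like than in CD8 T cells. In CD8 T cells it stood at 30.8 (healthy brain), 80.2 (IgG), 67.5 (anti-CTLA-4) and 84.5 CPM (depletion), and in NK-like cells of the 3 tumor libraries at 30.2, 44.1 and 30.5 CPM. It was 2.65-fold (1.64 to 4.38), 1.53-fold (1.12 to 2.09) and 2.77-fold (1.88 to 4.24) lower in NK-like cells. CD4 T cells carried 58.0, 102 and 107 CPM in healthy brain, IgG and anti-CTLA-4, and Foxp3 T cells 85.7, 87.6 and 35.0 CPM in IgG, anti-CTLA-4 and depletion. All T cell classes of the IgG and anti-CTLA-4 libraries lay above the NK-like cells, and the Foxp3 cells of the depletion library lay near them. An antisense gene that overlaps Tox, Gm11802, had 2 UMIs in all T and NK-like cells against 1063 for Tox.

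Prdm1 (ENSMUSG00000038151, chromosome 10, 44437177 to 44528501, minus strand) was higher in CD4 and Foxp3 than in CD8 T cells of the IgG and anti-CTLA-4 libraries. CD8 T cells carried 2.05 (1 UMI), 6.42 (4 UMIs), 23.0 and 17.2 CPM in healthy brain, the IgG library, the anti-CTLA-4 library and the depletion library. CD4 T cells carried 0, 46.3 and 56.5 CPM in the first 3, and Foxp3 T cells 57.6, 73.3 and 45.7 CPM in the tumor libraries. NK-like cells lay between, at 30.2, 26.3 and 41.4 CPM, and were 2.41-fold (1.56 to 3.68) above CD8 T cells with depletion. With anti-CTLA-4 NK-like and CD8 cells overlapped in their intervals (1.14, 0.708 to 1.87).

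Id2 was high and Id3 low in NK-like cells. Id2 (ENSMUSG00000020644) lies on chromosome 12 at 25093799 to 25097140, minus strand, and Id3 (ENSMUSG00000007872) on chromosome 4 at 136143497 to 136145755, plus strand. Id2 stood at 156 (healthy brain), 416 (IgG), 876 (anti-CTLA-4) and 550 CPM (depletion) in CD8 T cells, at 156, 916 and 977 CPM in the CD4 T cells of the first 3, at 386, 265 and 189 CPM in Foxp3 T cells of the tumor libraries and at 1180, 1006 and 957 CPM in NK-like cells. Id3 stood at 53.4, 20.9, 39.7 and 25.4 CPM in CD8 T cells, at 40.1, 23.2 and 16.3 CPM in CD4 T cells, at 30.7, 8.94 and 6.09 CPM in Foxp3 T cells and at 8.63, 3.68 and 0 CPM in NK-like cells. The IgG value in Foxp3 T cells rested on 24 UMIs in 7 cells. Id3 was 10.8-fold (4.87 to 28.2) lower in NK-like than in CD8 cells with anti-CTLA-4 and at least 7.75-fold lower with depletion (0 against 87 UMIs, with a floor of 3 UMIs). Id2 was 2.84-fold (2.48 to 3.26) higher in NK-like cells with IgG, 1.15-fold (1.07 to 1.24) with anti-CTLA-4 and 1.74-fold (1.60 to 1.89) with depletion. The depletion value includes NK sub-cluster 15, where Id2 stood at 1393 CPM. The anti-CTLA-4 ratio was 0.993 with ribosomal and mitochondrial genes out and 0.979 after thinning. The anti-CTLA-4 library, where the ratio was smallest, had the highest CD8 level of the 4.

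Of the activation-linked pair, Batf was higher in CD4 and Foxp3 T cells than in CD8 T and NK-like cells of the IgG and anti-CTLA-4 libraries, and Bhlhe40 was highest in CD4 T cells there and in NK-like cells with depletion. Batf (ENSMUSG00000034266) lies on chromosome 12 at 85686669 to 85709087 and Bhlhe40 (ENSMUSG00000030103) on chromosome 6 at 108660629 to 108666925, both on the plus strand. Batf stood at 102 (IgG) and 122 CPM (anti-CTLA-4) in CD4 T cells, at 102, 125 and 82.2 CPM in Foxp3 T cells, at 56.2, 42.9 and 54.8 CPM in CD8 T cells and at 41.0, 45.2 and 30.5 CPM in NK-like cells of the tumor libraries. Bhlhe40 stood at 187 and 216 CPM in CD4 T cells of the same 2 libraries, at 66.5, 39.3 and 44.2 CPM in Foxp3 T cells, at 43.3, 73.1 and 71.7 CPM in CD8 T cells and at 105, 98.8 and 125 CPM in NK-like cells. Healthy CD4 and CD8 T cells carried 4.46 and 8.22 CPM of Bhlhe40, below all 4 classes of the IgG and anti-CTLA-4 libraries. The antisense gene 0610040F04Rik, which overlaps Bhlhe40, had 3 UMIs against 1319.

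Counted by size, a gene was compared where the 2 groups together held at least 50 of its UMIs, and was called different at a CPM ratio of 2 or more in either direction. Between NK-like and CD8 T cells 5 of 6 members passed with IgG, against 12.6% of all genes compared. With anti-CTLA-4 it was 2 of 8 (Eomes and Id3), against 13.3%, and with depletion 5 of 8 (Tbx21, Eomes and Prdm1 higher, Tox and Id3 lower), against 13.6%. The 5 with IgG were Tbx21, Eomes, Id2 and Bhlhe40, higher in NK-like cells, and Tox, lower. Among 12 listed genes that T-bet and Eomes are known to activate, 7 were higher in NK-like cells in each tumor library, of 11, 12 and 11 compared, and 1, 2 and 2 were lower. Perforin (Prf1) was 7.59-fold, 9.44-fold and 14.2-fold higher in NK-like cells, and the fractalkine receptor Cx3cr1 was lower in all 3 (20.5 against 49.7, 33.6 against 92.2 and 17.4 against 38.8 CPM). Of the 3 E protein genes, Tcf4 was higher in NK-like cells in all 3, at 52.9 against 1.60, 68.3 against 8.74 and 66.5 against 4.95 CPM. The list median log2 ratio of the T-bet and Eomes targets was 1.55, 1.19 and 1.33, beside 0.23, 0.18 and 0.07 over all genes compared. Prf1 and Gzma are also among the NK markers that named the NK-like cells, so their direction was fixed in part by that naming. Cx3cr1 is also among the microglia markers used here, and the part of microglial RNA in its CD8 values was not tested.

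Within the classes the level of each gene differed between sub-clusters, and some genes were highest in the same sub-cluster. Sub-clusters are named by number and leading genes, and values are means over the tumor libraries with at least 20 cells in the sub-cluster, with the lowest and highest library. Tbx21 was highest in NK sub-cluster 7 (Prf1, Gzmb), at 148 CPM (109 to 177), above NK sub-cluster 11 (Klra4, Klra8) at 63.4 CPM (58.1 to 70.2). Eomes had the reverse order in those, at 224 CPM (163 to 312) in sub-cluster 7 and 297 CPM (270 to 318) in sub-cluster 11, with overlapping ranges. Both were low in T sub-cluster 13 (Cd163l1, Rora), at 9.77 CPM (6.04 to 13.5) for Tbx21 and 0 for Eomes, where Tox stood at 107 CPM (86.4 to 127) and Id2 at 779 CPM (477 to 1080).

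Among T cells, sub-cluster 4 (Cd4, Ccl1, Ifng) had the highest Id2 (1328 CPM, 1257 to 1412), Bhlhe40 (212 CPM, 97.6 to 269) and Batf (112 CPM, 91.1 to 135) and nearly no Eomes (0.507 CPM). Its Tbx21 level, 52.2 CPM (47.8 to 58.6), was also the highest among T cells, near that of sub-cluster 5. The Foxp3-rich sub-cluster 10 followed for Batf (105 CPM, 92.4 to 121) and led the T cells for Prdm1 (53.1 CPM, 48.6 to 57.4). Sub-cluster 14 (Cd8a, Pdcd1, Gzmf), of whose cells 66.2% carried an NK receptor UMI, had the highest Tox, at 124 CPM (90.0 to 157), with Eomes at 9.55 CPM (3.60 to 16.4) and Id3 at 2.58 CPM (0 to 5.40). Sub-cluster 5 (Xcl1, Klra1, Klra6, Cd160), T cells of which 54.5% carried an NK receptor UMI, had the highest Id3, at 94.3 CPM (66.2 to 148), together with Tbx21 at 51.4 CPM (36.6 to 76.7) and Eomes at 44.3 CPM (33.1 to 61.4). Naive-like sub-cluster 0 had Id3 at 59.6 CPM (45.5 to 71.6), with Id2 at 49.0 CPM (24.7 to 64.9) and Bhlhe40 at 4.33 CPM (0 to 12.99), the lowest of the sub-clusters shown for both. The depletion-only sub-cluster 6 stood at 4.36 CPM for Tbx21 and 120 CPM for Bhlhe40. The depletion-only NK sub-cluster 15 stood at 23.2 CPM for Tbx21, 195 CPM for Eomes and 200 CPM for Bhlhe40. Its Id2 level, 1393 CPM, was the highest of the sub-clusters shown.

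**Figure D2:**
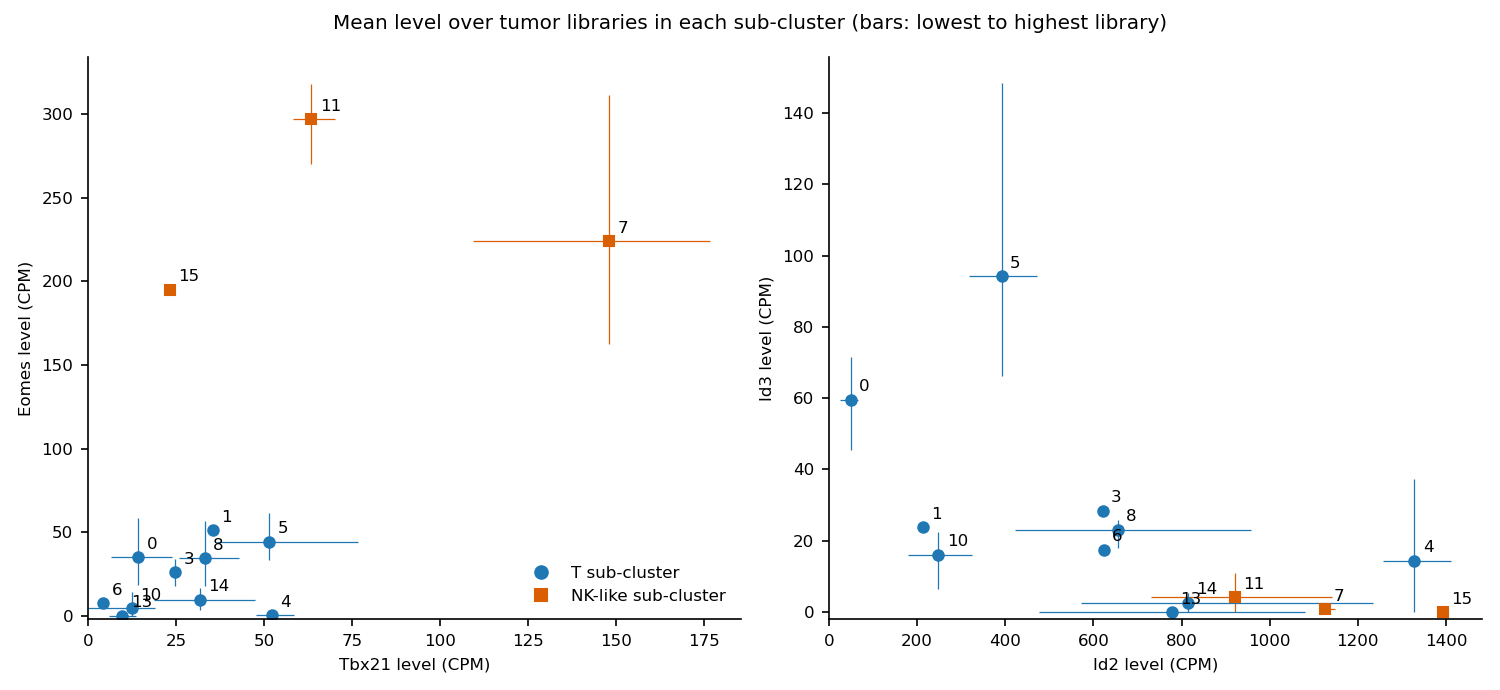
Each point is a numbered sub-cluster at its mean over tumor libraries, with bars from the lowest to the highest library: Eomes against Tbx21 (CPM) on the left and Id3 against Id2 (CPM) on the right, T sub-clusters as circles and NK-like ones as squares; sub-clusters 1, 6 and 15 rest on 1 library and have no bars, and sub-cluster 12 is not shown. The NK-like sub-clusters lie at 195 to 297 CPM of Eomes, above every T sub-cluster, and sub-clusters 5 and 0 lie highest for Id3.

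The IgG and healthy brain libraries compare T cells of tumors under isotype control with those of normal brain. Tbx21 stood at 30.7 CPM with IgG and 11.1 CPM in healthy brain, Eomes at 27.7 and 12.995, Tox at 81.5 and 39.9, Batf at 82.6 and 27.8, Id2 at 535 and 154, Bhlhe40 at 80.7 and 4.64, and Prdm1 at 32.7 and 0.928 CPM. All 7 were higher in the tumor, by 2.04-fold (Tox, 1.47 to 2.90) to 17.4-fold (Bhlhe40, 7.33 to 54.1), and Prdm1, with 85 against 1 UMI, by 35.2-fold (6.15 to 1406). Thinned to 1000 UMIs per cell, healthy T cells held neither Prdm1 nor Bhlhe40, which were then at least 1.31-fold and 3.53-fold higher (floor of 3 UMIs). Eomes was 5.10-fold, Batf 1.88-fold and Tox 1.70-fold higher after thinning. Id3 was the exception, at 34.6 against 58.5 CPM, or 1.69-fold lower (1.21 to 2.36). So 7 of 8 members passed the 2-fold line, beside 12.7% of all genes compared, and their median log2 ratio was 1.52 beside 0.10.

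Healthy T cells were mostly naive-like. Of 148 healthy T cells, 114 lay in sub-cluster 0, against 24 of 380 with IgG, and those 114 held 0 UMIs of Tbx21, Prdm1 and Bhlhe40. Outside that sub-cluster (34 healthy and 356 IgG cells) Tbx21 was level, at 32.4 CPM in healthy brain and 32.3 CPM with IgG. Eomes (3.18-fold), Tox (2.56-fold), Prdm1 (12.7-fold), Batf (2.27-fold) and Bhlhe40 (6.30-fold) had ratios above 2 there, or 5 of 8 beside 17.9% of all genes, and Id2 stood at 1.69-fold. This restriction was chosen after the data were seen, and the 34 healthy cells held 1 Prdm1 UMI, 3 Eomes UMIs and 5 Bhlhe40 UMIs. B cell markers summed to 555 CPM in healthy T cells and 35.7 CPM with IgG, with 8 of 8 detected in both. Dissociation-response genes summed to 710 CPM (10 of 13 detected) and 1304 CPM (13 of 13). The part of these markers in the comparison was not tested.

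Other gene lists were compared in the same cells. Of 17 other effector factors compared, 12 were higher and 1 lower with IgG, with a median log2 ratio of 1.25. They included Maf, a regulator of interleukin-10 (14.3-fold), the Notch partner Rbpj (8.48-fold), Irf8 (5.78-fold) and Runx3 (2.24-fold), and Myb was 2.76-fold lower. Of 10 quiescence and memory factors 6 were lower and 0 higher, led by Klf2, which keeps T cells circulating (5.75-fold lower), Lef1 (4.03-fold), Klf3 (3.68-fold) and Bach2 (3.38-fold). Of 10 T-bet and Eomes targets 6 were higher, among them Ifng (80.7 against 1.86 CPM), Fasl (6.90-fold) and Il2rb (5.99-fold), and Gzma was 4.74-fold lower. Of 7 inhibitory receptors 6 were higher, led by Lag3 (37.6-fold) and Ctla4 (21.8-fold), and among the Blimp-1 linked genes Ccr7 was 4.49-fold lower and Cxcr6 4.45-fold higher.

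Within CD8 T cells only 3 members reached 50 UMIs in IgG and healthy brain together. Tox (2.60-fold, 1.44 to 4.99) and Id2 (2.66-fold, 2.05 to 3.48) passed, 2 of 3 beside 8.72% of all genes, and Batf did not (1.52, 0.837 to 2.85). Below 50 UMIs, Bhlhe40 rested on 27 against 4 UMIs, Tbx21 on 25 against 7, and Id3 on 13 against 26. In CD8 T cells, other effector factors were higher in 6 of 11 compared (Irf8 21.3-fold, Rbpj 5.75-fold) and quiescence and memory factors lower in 5 of 8. Outside sub-cluster 0 just 10 healthy CD8 cells were left, and there Id2 was 417 CPM in healthy brain and 484 CPM with IgG.

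Anti-CTLA-4 was compared with IgG to describe tumor T and NK-like cells under the blocking antibody. Over all T cells, Tbx21 (37.5 against 30.7 CPM), Tox (83.9 against 81.5), Prdm1 (41.3 against 32.7), Id3 (31.1 against 34.6), Batf (78.9 against 82.6) and Bhlhe40 (99.4 against 80.7) had ratios of 0.898 to 1.27. Id2 was 1.40-fold (1.31 to 1.49) higher, at 747 against 535 CPM. Eomes alone passed, at 9.97 against 27.7 CPM, or 2.78-fold lower (1.82 to 4.31), 1 of 8 members beside 1.45% of all genes. That ratio depended on which cells were counted as T cells: it was 0.360 here and 0.5999 to 0.704 under 5 other cell filters or clusterings that kept more T cells (567 to 606 instead of 526 with anti-CTLA-4). Of the other lists, 2 of 11 T-bet and Eomes targets were higher (Gzma 4.53-fold, Gzmb 2.78-fold) and none of 21 other factors, 10 quiescence and memory factors or 7 inhibitory receptors passed. Of 9 Blimp-1 linked genes 1 passed, Itga1, which was 2.67-fold higher (1.61 to 4.63; 70 against 20 UMIs).

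In CD8 T cells Eomes was lower under every alternative tried. It stood at 16.7 CPM with anti-CTLA-4 and 49.7 CPM with IgG, from 21 and 31 UMIs, or 2.98-fold lower (1.66 to 5.46), and the ratio ran from 0.262 to 0.393 over the alternatives. The thinned alternative rests on Eomes in 3 anti-CTLA-4 and 4 IgG cells. Id2 was 2.11-fold higher (1.84 to 2.42), Id3 1.90-fold (1.02 to 3.82) and Bhlhe40 1.69-fold (1.09 to 2.70), while Tbx21 (1.15), Tox (0.842) and Batf (0.764) had intervals that include 1. After thinning the Id3 ratio was 0.629, with Id3 in 4 anti-CTLA-4 and 5 IgG cells, and the Bhlhe40 ratio 2.88. The thinned Batf ratio was 3.67, with Batf in 7 anti-CTLA-4 cells and 1 IgG cell. So 2 of 7 members passed, beside 2.89% of all genes. Prdm1, with 29 against 4 UMIs, was under the minimum. Granzyme genes differed by more: Gzmb stood at 760 against 127 CPM (6.00-fold) and Gzma at 2174 against 408 CPM (5.33-fold), the 2 of 10 T-bet and Eomes targets that passed. The residency integrins Itgae (3.71-fold) and Itga1 (3.16-fold) and the receptors Havcr2 (2.69-fold) and Ctla4 (2.25-fold) were higher, and Ccr7 was 2.20-fold lower. NK markers, which include Gzma, summed to 3277 CPM in these CD8 cells with anti-CTLA-4 (13 of 13 detected) and 1423 CPM with IgG (11 of 13), and macrophage markers to 267 and 1046 CPM (8 of 10 in both). Their part in the Eomes and Id2 values was not tested.

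In NK-like cells no member passed between anti-CTLA-4 and IgG. Ratios of the 7 members compared ran from 0.852 (Id2, 0.791 to 0.919) to 1.46 (Tox, 0.942 to 2.33), with Eomes at 0.982 (0.840 to 1.15) and Tbx21 at 0.956 (0.732 to 1.26). The count was thus 0 of 7, beside 1.52% of all genes. Among the T-bet and Eomes targets Ifng was 2.40-fold lower (64.6 against 155 CPM), and of 10 dissociation-response genes Fosb (6.50-fold), Fos (3.76-fold) and Egr1 (2.59-fold) were lower. Foxp3 T cells also had none of 5 past the line, beside 3.36% of all genes. Id2 was 1.46-fold (1.20 to 1.79) lower there, Bhlhe40 1.69-fold (1.01 to 2.92) lower and Prdm1 and Batf 1.27 (0.813 to 1.99) and 1.22 (0.874 to 1.71). Proliferation markers summed to 336 CPM in Foxp3 T cells with anti-CTLA-4 (7 of 8 detected) and 1576 CPM with IgG (8 of 8), and their part was not tested.

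**Figure D3:**
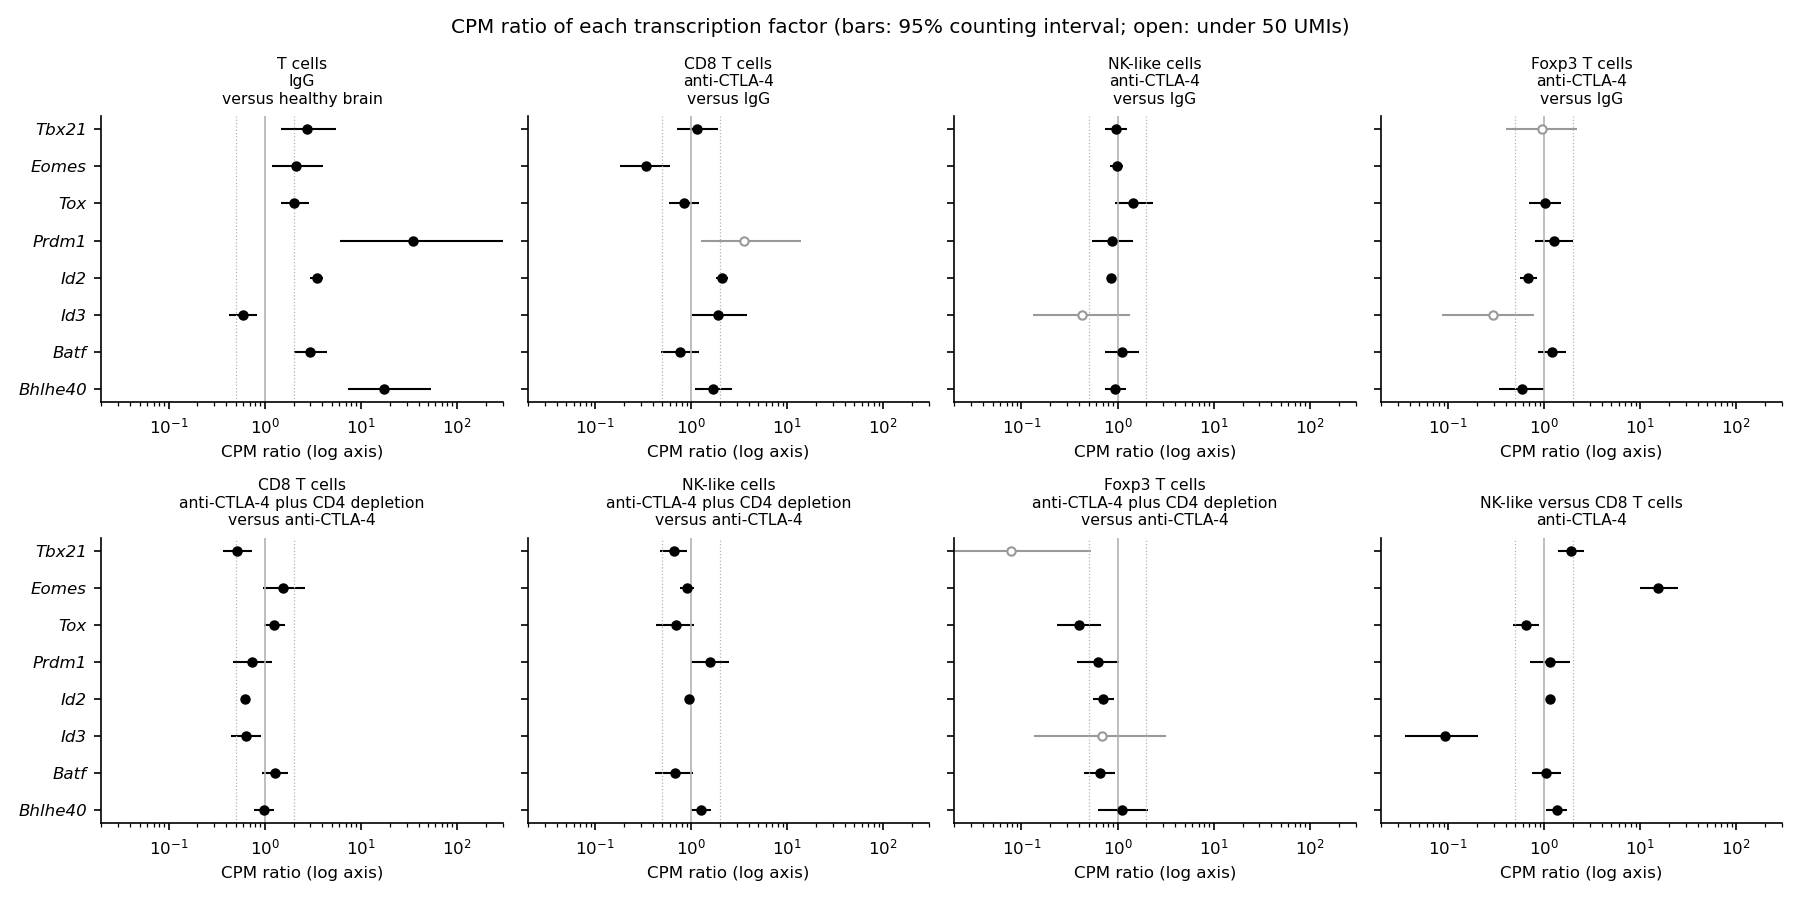
CPM ratio (horizontal log axes) of each gene in 8 of the comparisons, with its 95% counting interval; open grey points rest on under 50 UMIs, dotted lines mark 2-fold, genes with 0 UMIs in a group are left out, and the Prdm1 and Tbx21 bars that meet the frame run beyond it. The IgG to healthy brain ratios of T cells lie above 2 for 7 genes, while the filled NK-like points of anti-CTLA-4 to IgG lie at 0.852 to 1.46.

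CD4 depletion on top of anti-CTLA-4 was compared with anti-CTLA-4 alone, which also serves as the treated library in the comparison with IgG. Over all T cells Prdm1 stood at 21.1 against 41.3 CPM (1.96-fold lower, 1.52 to 2.54), Tbx21 at 20.1 against 37.5 CPM (1.86-fold lower, 1.43 to 2.43) and Eomes at 19.8 against 9.97 CPM (1.98-fold higher, 1.34 to 3.01). None of 8 reached 2-fold, beside 3.35% of all genes, with these 3 just under it. CD4 T cells, which carried Prdm1 and Tbx21 but nearly no Eomes, were 137 of 526 T cells under anti-CTLA-4 alone and 17 of 1181 after CD4 depletion, and the part of that shift was not tested. Without the depletion-only sub-cluster 6, Eomes was 2.23-fold higher and Prdm1 2.03-fold lower, so 2 of 8 passed, beside 2.88% of all genes. The Eomes ratio moved with the cells kept and the Prdm1 ratio with thinning, and the cause was not tested. The Eomes ratio was 1.06 to 1.21 under the 5 other cell filters or clusterings, and the Prdm1 ratio was 1.08 after thinning, with Prdm1 in 33 of 1166 depletion and 15 of 526 anti-CTLA-4 cells. Among other factors Maf (2.48-fold), Irf8 (2.45-fold) and Rbpj (2.10-fold) were lower, 3 of 24, and Il10, which Blimp-1 helps to switch on, was 13.2-fold lower. Klf2 was the 1 of 10 quiescence and memory factors that passed, 2.14-fold higher.

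Within CD8 T cells Tbx21 was 1.93-fold lower with depletion (1.35 to 2.73; 23.9 against 46.1 CPM). Id2 was 1.59-fold (1.48 to 1.71) and Id3 1.57-fold (1.08 to 2.24) lower. Eomes (1.55, 0.958 to 2.63), Tox (1.25, 0.979 to 1.61), Batf (1.28, 0.939 to 1.76), Bhlhe40 (0.981, 0.769 to 1.26) and Prdm1 (0.746, 0.471 to 1.21) had intervals that include 1. None of 8 passed, beside 4.4% of all genes. Outside sub-cluster 6 Tbx21 stood at 28.6 CPM and Bhlhe40 at 56.8 CPM with depletion. Of 11 T-bet and Eomes targets, Gzma (7.11-fold), Gzmb (2.91-fold), Prf1 (2.87-fold) and Cx3cr1 (2.38-fold) were lower and Klrg1 higher (16.3 against 0.795 CPM, the latter 1 UMI). Of 7 inhibitory receptors Cd244 (4.14-fold), Havcr2 (3.91-fold) and Lag3 (2.78-fold) were lower. Among the listed other and quiescence factors Maf (3.48-fold), Rora (3.29-fold), Gata3 (2.72-fold) and Klf2 (2.76-fold) were higher and Irf8 (3.77-fold) and Nr4a3 (2.19-fold) lower. NK markers summed to 854 CPM in CD8 cells with depletion (12 of 13 detected) against 3277 CPM, and their part was not tested.

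NK-like cells with depletion carried Tbx21 at 57.8 against 87.7 CPM (1.52-fold lower, 1.11 to 2.11) and Prdm1 at 41.4 against 26.3 CPM (1.58-fold higher, 1.01 to 2.45), and Eomes at 234 against 256 CPM (1.09-fold lower, 0.930 to 1.29). None of 7 passed, beside 2.24% of all genes. Outside the depletion-only sub-cluster 15, Tbx21 was 68.4 CPM and Prdm1 34.2 CPM. Id2 (1393 CPM) and Bhlhe40 (200 CPM) stood higher in that sub-cluster than in all NK-like cells of the depletion library (957 and 125 CPM). Gzmb, at 840 against 1778 CPM, was the 1 of 12 T-bet and Eomes targets that passed. Foxp3 T cells carried Tox at 35.0 against 87.6 CPM, 2.50-fold lower (1.49 to 4.30), which was 1 of 5 members, beside 4.23% of all genes. Leaving out the Foxp3 cells with a Cd8a or Cd8b1 UMI, a choice made after the data were seen, gave 37.7 against 91.8 CPM, and after thinning Tox was 1.57-fold lower, short of the 2-fold line. Tbx21 in Foxp3 T cells rested on 1 against 11 UMIs. In the same cells Gzmb was 3.42-fold higher, and Lag3 (13.6-fold), Rbpj (6.68-fold) and Pdcd1 (2.60-fold) were lower.

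Cells of a class were also split by a UMI of 6 effector or memory genes, as a description of how the members vary from cell to cell within 1 library. Cells with a Pdcd1 UMI were deeper, at a median of 8084 against 6465 UMIs in IgG CD8 cells, so the split gene's detection moves with depth. In CD8 cells with Tcf7, the memory and stem-like factor, Id2 was lower in all 3 tumor libraries (211 against 573, 527 against 1067 and 345 against 699 CPM for IgG, anti-CTLA-4 and depletion). Id3 was higher in the same cells (40.6 against 5.67, 56.0 against 30.8 and 36.8 against 17.1 CPM). Tox was lower in them with IgG (2.43-fold, 1.24 to 5.11) and depletion (2.89-fold, 2.16 to 3.92) and not separated with anti-CTLA-4 (1.25-fold, 0.773 to 2.06).

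Pdcd1 encodes the inhibitory receptor PD-1. Tox was higher in Pdcd1 cells with IgG (115 against 43.3 CPM; 2.65-fold, 1.38 to 5.43) and depletion (128 against 58.4; 2.19-fold, 1.73 to 2.79), and level with anti-CTLA-4 (68.8 against 65.9; 1.04-fold, 0.665 to 1.65). Batf was 7.21-fold (2.55 to 28.1) higher in them with IgG, from 31 against 4 UMIs, 1.67-fold (0.917 to 3.16) with anti-CTLA-4 and 1.37-fold (1.02 to 1.84) with depletion. Bhlhe40 was 4.09-fold (1.51 to 13.8), 2.06-fold (1.28 to 3.40) and 1.24-fold (0.9504 to 1.60) higher. Eomes was 7.82-fold (2.28 to 41.5) lower in Pdcd1 cells with anti-CTLA-4, from 3 against 18 UMIs, and not with depletion (29.4 against 23.8 CPM). Whether these splits differ between libraries was not tested.

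Gzmb encodes the cytotoxic protease granzyme B and Mki67 marks dividing cells, and the depletion library has the most CD8 cells for these splits. Eomes stood at 56.0 CPM in CD8 cells with Gzmb and 16.2 CPM without (3.45-fold, 2.23 to 5.37), Tbx21 at 42.9 and 17.7 CPM (2.42-fold, 1.52 to 3.82), and Eomes at 70.4 and 20.3 CPM with and without Mki67 (3.46-fold, 2.12 to 5.52). With anti-CTLA-4 Tbx21 was level between cells with and without Gzmb (47.8 and 44.6 CPM) and Id3 was 20.9-fold lower with it (5.49 to 178; 2 against 48 UMIs).

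**Figure D4:**
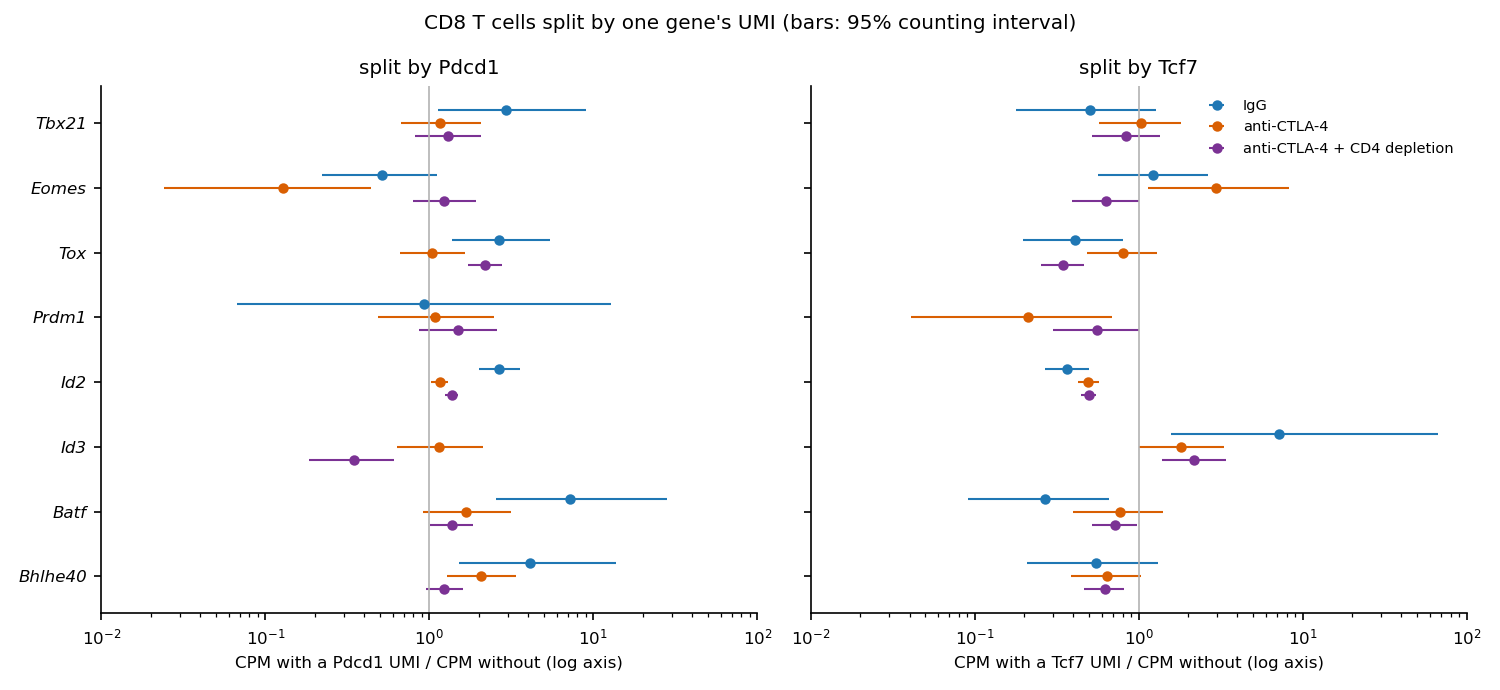
CPM ratio (horizontal log axes) of each gene between CD8 T cells with and without a UMI of Pdcd1 (left) or Tcf7 (right), by tumor library, with 95% counting intervals as bars; ratios with 0 UMIs on a side are left out. With the Tcf7 split the Id2 points lie below 1 and the Id3 points above 1 in all 3 libraries.

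CD4 T cells with Tcf7 had lower Id2, at 371 against 1338 CPM with IgG (3.61-fold lower, 2.87 to 4.57) and 242 against 1269 CPM with anti-CTLA-4 (5.23-fold, 3.98 to 7.02). Tbx21 was at 0 UMIs in the 34 CD4 cells with Tcf7 and 37 UMIs in the 103 without it, with anti-CTLA-4. CD4 cells with Pdcd1 had more Bhlhe40, at 247 against 83.2 CPM (IgG) and 295 against 106 CPM (anti-CTLA-4). Those with Cd40lg, which encodes the CD4 helper ligand CD40L, had more Id2, at 1157 against 527 CPM and 1283 against 630 CPM. CD4 cells with Ifng, compared with anti-CTLA-4 alone, had 3.09-fold (2.03 to 4.73) more Batf and 2.81-fold (1.5004 to 5.31) more Prdm1. In Foxp3 T cells Pdcd1 went with Tox (130 against 54.4 CPM with IgG, 123 against 66.2 CPM with anti-CTLA-4).

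NK-like cells with an Ifng UMI carried 133 against 77.2 CPM of Tbx21 with anti-CTLA-4 (1.72-fold, 1.20 to 2.43) and no more with IgG (89.3 against 92.4 CPM). Those with Gzmb had less Tox with anti-CTLA-4 (30.2 against 85.3 CPM; 2.82-fold lower, 1.80 to 4.44), a lower value with IgG (22.9 against 52.5 CPM; 0.988 to 5.16-fold) and no such gap with depletion (34.9 against 24.1 CPM). Id2 was 1.40-fold, 1.21-fold and 1.24-fold lower in NK-like cells with Tcf7 with IgG, anti-CTLA-4 and depletion.

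Id2 and Id3 were also counted in the same CD8 T cells. With IgG, Id3 was found in 2.44% of the CD8 cells with Id2 (95% interval 0.0617 to 12.9) and 31.4% of those without (16.9 to 49.3). The shares were 11.2% (6.10 to 18.4) and 29.6% (13.8 to 50.2) with anti-CTLA-4, and 6.38% (4.37 to 8.93) and 8.61% (5.18 to 13.3) with depletion. The intervals were apart with IgG only. Thinned to 1000 UMIs, it was found in 0 of the 23 CD8 cells with Id2 and 9.62% of the rest. With anti-CTLA-4 thinned shares were 1.41% and 4.17%, and with depletion 1.92% and 3.04%. In NK-like cells thinned the same way, Eomes was found in 4 of the 17 cells with Tbx21 (23.5%) and 21.2% of those without for IgG, in 6 of 36 (16.7%) and 22.0% for anti-CTLA-4, and in 4 of 17 (23.5%) and 20.5% for depletion.

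Genes most like each member were ranked by Pearson's r of log2(CPM + 10) over 13 units of class and library with at least 30 cells, among 4887 genes. The units share libraries and the 3 NK-like units stand apart, so r is a description. Zeb2, a transcriptional repressor that promotes terminal effector and NK cell maturation, was most like Tbx21 (r = 0.94) and the Fc receptor chain Fcer1g most like Eomes (0.97). Tox was closest to Cd200 (0.89), Prdm1 to the class I gene H2-K1 (0.96), Id2 to the phosphatase Dusp2 (0.98), Id3 to the spliceosome gene Snrpg (0.91), Batf to Cd200r1 (0.97) and Bhlhe40 to the adhesion receptor Cd44 (0.94).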

How the data were processed

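Immune cells of mouse brain were profiled with 10x 3′ v2 single-cell RNA sequencing. The deposited matrices hold raw UMI counts per gene and barcode, made with Cell Ranger 3.1.0 per the file headers and the mm10 build per the submitters' processing notes.

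Barcodes needed 200 genes or more, and those above 10% mitochondrial UMIs were dropped. Doublet calls were made with Scrublet in scanpy 1.11.5 (Python 3.11.15) at an expected rate of 5%. Where the automatic threshold marked under 0.6% of cells (8 of 1853 with anti-CTLA-4, 20 of 3875 with depletion), the 5% with the highest scores were removed instead, and that limit was set after the data were seen. This left 1388, 1434, 1761 and 3682 cells, in the library order of the report. Cells were clustered on 2000 variable genes without the members (30 components, 15 neighbours, resolution 1) into 22 clusters. The 7 lymphoid clusters were clustered again into 16 sub-clusters, of which 10 were used as T and 4 as NK-like. Sub-clusters 2 (neutrophil genes) and 9 (Mcpt4, Calca) were left out.

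UMIs were summed per class and library, and CPM ratios carry exact 95% conditional binomial intervals. A gene was compared at 50 UMIs in both groups together and called at 2-fold. The scripts were tested on simulated data. The members and gene lists were chosen with earlier results of these data known. The naming rule covers all 8 members in every class and the genes most like them by Pearson's r. It also covers 6 split genes and, of each list, the 2 to 4 genes with the largest ratios. List genes beyond those were chosen after their values were seen. Not every class, list and comparison is printed in full, so some genes that the rule covers are left out.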

Additional observations from a re-analysis of the deposited data

Results flagged for a closer look

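Under anti-CTLA-4 against IgG, 3 genes had ratios on opposite sides of 1 in different classes, with 95% counting intervals that leave out 1. Id2 was higher in CD8 T cells (ratio 2.11, 1.84 to 2.42) and lower in Foxp3 T cells (0.685, 0.559 to 0.836) and NK-like cells (0.852, 0.791 to 0.919). Bhlhe40 had a ratio of 1.69 (1.09 to 2.70) in CD8 T cells and 0.591 (0.342 to 0.991) in Foxp3 T cells. Id3 had a ratio of 1.90 (1.02 to 3.82) in CD8 T cells, from 50 against 13 UMIs, and 0.291 (0.0868 to 0.778) in Foxp3 T cells, from 5 against 24 UMIs, the 24 lying in 7 cells. The Id3 ratios changed sides after thinning to 1000 UMIs per cell, to 0.629 in CD8 T cells and 1.57 in Foxp3 T cells, where 2 to 5 cells per class and library held Id3. With 1 library per group the difference between classes was not tested.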

How the results depend on the processing

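No paired analysis was possible because each group has 1 library. The number of members past 2-fold moved as follows, and the cause was not tested. Thinned to 1000 UMIs per cell, fewer members reached the minimum, and counts are of those, with the share of all genes in brackets. T cells had 1 of 1 (14.9%) instead of 7 of 8 for IgG against healthy brain. They had 0 of 4 (1.21%) instead of 1 of 8 for anti-CTLA-4 against IgG. In CD8 T cells 0 members reached the minimum for IgG against healthy brain, where 2 of 3 had passed. CD8 T cells had 1 of 1 (2.16%) instead of 2 of 7 for anti-CTLA-4 against IgG. Foxp3 T cells with depletion had 0 of 1 (2.75%) instead of 1 of 5. NK-like against CD8 T cells had 2 of 2 (14.3%) instead of 5 of 6 with IgG. It was 1 of 2 (14.4%) instead of 2 of 8 with anti-CTLA-4, and 2 of 5 (12.2%) instead of 5 of 8 with depletion. For T cells anti-CTLA-4 against IgG it was also 0 of 8 under 5 other alternatives, beside 1.43% to 1.52% of all genes. Those were at least 500 genes, no doublet removal, the members among the clustering genes, and resolutions 0.5 and 2. For T cells depletion against anti-CTLA-4 it was 1 of 8 instead of 0 under 4 alternatives. Those were median-of-ratios scaling (2.9% of all genes), ribosomal and mitochondrial genes out (3.05%), no doublet removal (3.23%) and CPM averaged over cells (3.69%). It was 2 of 8 (2.88%) without sub-clusters 6 and 15, an alternative chosen after the data were seen.

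At a ratio of 1.5 the count was 3 for T cells depletion against anti-CTLA-4, 4 in CD8 T cells for anti-CTLA-4 against IgG and 4 for depletion, 2 in NK-like cells with depletion, 1 in Foxp3 T cells for anti-CTLA-4 and 3 for depletion, and 4 and 8 for NK-like against CD8 T cells with anti-CTLA-4 and depletion. For CD8 T cells IgG against healthy brain it was 5 of 7 (12.9%) at 20 UMIs and 6 of 8 (31.6%) with no minimum. Outside sub-cluster 0, which was also chosen later, it was 0 of 2 (14.7%). With no minimum it was 1 of 8 (22.6%) in NK-like cells for anti-CTLA-4 against IgG. Foxp3 T cells then had 2 of 8 (27.6%) for anti-CTLA-4 and 2 of 7 (28%) for depletion. At 20 UMIs it was 1 of 7 (7.93%) in Foxp3 T cells for anti-CTLA-4. In CD8 T cells, anti-CTLA-4 against IgG, it was 1 of 7 (2.89%) with ribosomal and mitochondrial genes out. In CD8 T cells with depletion it was 1 of 8 without doublet removal (4.01%) and 1 of 8 at resolution 0.5 (4.28%). Tbx21 in T cells, IgG against healthy brain, went from a ratio of 2.76 to 0.997 outside sub-cluster 0.

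The other 122 planned and 7 added counts stayed within 1.5 times. Of the single ratios, 865 planned and 60 added stayed inside the counting interval of the reported ratio, 62 and 9 left it, and the other 1 is the reversed Tbx21 ratio. Ratios that also changed direction under thinning included Prdm1 in T cells (depletion) and Id3 in CD8 and Foxp3 T cells (anti-CTLA-4). Batf was another, reaching 3.67 in CD8 T cells for anti-CTLA-4 against IgG and 1.84 for NK-like against CD8 T cells with IgG. For CD8 T cells IgG against healthy brain, the lowest planned ratios were 0.267 (Tbx21), 0.267 (Batf) and 0.533 (Bhlhe40). After thinning, 1, 1 and 2 IgG CD8 cells held these genes, so the values rest on few UMIs. Prdm1 in CD8 T cells, anti-CTLA-4 against IgG, reached 0.524. Counts of few UMIs limit Prdm1, Id3 and Tbx21 most, and no value here measures the spread between mice.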

Other observations

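Outside T and NK-like cells the same genes were found in other immune clusters, given here over all libraries together. Id2 stood at 2128 CPM (1815 UMIs) in a neutrophil-like cluster of 384 cells (Cxcl2, Il1r2, Retnlg), where Bhlhe40 stood at 267 CPM and Id3 at 0 UMIs. Bhlhe40 stood at 253 CPM (656 UMIs) in a dendritic-like cluster of 268 cells (Cd209a, Ccl17) and at 129 CPM in a macrophage-like cluster of 727 cells. In the 497 B cell-like cells (Cd79a, Ms4a1, with hemoglobin genes also leading) Id3 stood at 111 CPM (254 UMIs) and Id2 at 17.1 CPM.

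Prdm1, which plasma cells require for antibody secretion, stood at 112 CPM (22 UMIs) in a cluster of 20 plasma-like cells. In 788 microglia-like cells it stood at 35.2 CPM (150 UMIs), while Tbx21, Eomes and Tox had 0 UMIs there. A cluster of 57 type 2 lymphoid-like cells (Il13, Il5, Gata3) had Batf at 202 CPM, Bhlhe40 at 247 CPM and Id2 at 919 CPM.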
